A study of Mus musculus with 18 samples.

Results

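The proteasome subunit genes were followed in mouse embryonic stem (ES) cells, in their differentiated counterparts and in both after ionizing radiation (IR). They were taken by symbol, as every mouse protein-coding gene in RefSeq whose name is Psma, Psmb, Psmc, Psmd or Psme with a number, and whose accession is the target of an array probe. This rule found 46 genes in RefSeq and 44 on the array, of which Psmc3ip and Psme3ip1 encode no subunit and were set aside. The remaining 42 subunit genes, among 34289 gene names measured, were represented by 44 array features, since Psmd2 and Psme2 each had probes against 2 transcripts. Psma8 and Psme2b had no probe.

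RNA of 18 samples was hybridised to Agilent arrays with 1 dye, with 3 arrays in each of 6 groups. ES cells were untreated wild-type cells, derived from blastocysts and grown without feeders in the presence of LIF, the cytokine that keeps them undifferentiated. ED cells were isogenic cells obtained from them by withdrawal of LIF and, per the study's methods, of beta-mercaptoethanol. Titles of the unirradiated ED samples call them differentiated primary non-stem cells. ESRE and ESRL cells were ES cells collected 15 min and 4 h after 10 Gy of IR, and EDRE and EDRL cells were ED cells treated and collected in the same way. All groups thus shared 1 genetic background, and no group carried a transgene or a deletion. The labels do not say whether the 3 samples of a group came from separate cultures, so each p-value measures the spread between these samples, which may be technical. A culture was measured in bulk, so fewer cells of a type and less RNA per cell cannot be told apart.

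The proteasome is the barrel-shaped protease that degrades ubiquitin-tagged proteins in the cytoplasm and nucleus. Its core particle stacks outer rings of alpha subunits (Psma genes) on inner rings of beta subunits (Psmb genes). Psmb6, Psmb7 and Psmb5 encode the beta subunits that cut proteins, with caspase-like, trypsin-like and chymotrypsin-like activity. In immune cells, and in many others exposed to interferon, they are replaced by Psmb9, Psmb10 and Psmb8, which form the immunoproteasome and favour peptides for antigen presentation. The regulatory particle that caps the core has a base with a ring of ATPases (Psmc genes), which unfold the substrate, and a lid that removes ubiquitin (most Psmd genes). Psme genes encode alternative caps, the activators. Human ES cells are known for high proteasome activity, which declines as they differentiate.

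The cultures differed in stem cell markers in the direction of their labels. The summed level of the 10 pluripotency genes on the array lay between 569 and 841 in ES, ESRE and ESRL cells and between 16.6 and 33.5 in ED, EDRE and EDRL cells, where Zfp42 was not well above background. Klf4, 1 of the 10, ran against this sum. With arrays set to their median, its log2 changes were 0.69, 0.90 and 0.80 in ED, EDRE and EDRL against ES, ESRE and ESRL cells. The summed level of 8 mesenchymal genes, a cell type the labels do not name, ran the other way, from 29.9 to 39.8 against 435 to 577. Thy1, a member of that list, was not well above background in the differentiated groups. EDRE samples 2 and 3 stood apart. Their 75th percentile signals were 851 and 1119, against 1900 to 4120 on the other arrays, and the scanner software marked 32 and 30 of the 44 subunit features there as outlier spots. Such spots were left out, so 22 of the 37 features compared between EDRE and ESRE cells rested on 1 EDRE sample. ES samples were read in a scan of their own, as were EDRE samples 2 and 3 and ESRL sample 1, which alone was read on another scanner. ED and ES arrays shared no scan, nor did EDRE and ESRE or EDRL and ESRL arrays. Cell type and scan thus cannot be told apart within these comparisons. In every sentence below, a level is the log2 signal of a gene minus the 75th percentile of its array, a change is a difference of levels on the log2 scale, and a gene is said to rise or fall where the Benjamini-Hochberg adjusted p of limma's moderated test, taken over all features tested, was under 0.05.

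Between untreated ED and ES cells, 15 of the 38 subunit genes tested fell and none rose. Among all 26228 gene names tested in this comparison, 31.9% fell and 19.6% rose, so the 15 genes (6 of them by over 1 log2 unit, against 26.6% of all gene names) were a share near the background. Here and below, counts, shares and medians over all features are by gene name. A gene name was counted as called where at least 1 of its probes passed. The median change of the subunit genes was -0.52, beside -0.18 over all features. Both medians depend on the scaling: with every array set to its median, the median of all features moved up by 0.64 to 0.46, that of the subunit genes became 0.12, and 5 subunit genes rose while 2 fell, when 35.3% of all features rose and 20.9% fell. Quantile normalization gave 17 subunit genes that fell and none that rose, beside 25.6% and 28.7% of all features. The subunit median stayed below the median of all features under all 17 settings that kept every group, by 0.27 to 0.76 log2 units, and this gap was not tested. Without ED sample 1, the subunit median minus that of all features was -0.24. Among features well above background on all 18 arrays, 24.5% fell and 28.6% rose.

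The catalytic subunit gene Psmb6 fell in ED cells. Its level was 1.87, 1.65 and 1.71 in the 3 ES samples and 0.50, 0.51 and 0.45 in the 3 ED samples. No ED sample reached the lowest ES sample. The change was -1.26 ± 0.22 (SE, n = 3 and 3, limma adjusted p = 0.00019), a 2.39-fold lower signal, or 1.54-fold with arrays set to their median. The trypsin-like subunit gene Psmb7 also fell, from 4.49, 4.67 and 4.64 in ES cells to 3.53 and 3.35 in the ED samples not marked as outliers. Its change was -1.17 ± 0.17 (n = 2 and 3, limma adjusted p = 0.000474), and it did not pass with arrays set to their median. The third constitutive catalytic gene, Psmb5, which encodes the subunit bound by proteasome inhibitors used in the clinic, did not pass the test, with levels of 5.69, 5.74 and 5.48 against 5.39, 5.47 and 5.57 and a change of -0.16 (limma adjusted p = 0.591). The lowest ES sample and the highest ED sample overlapped for Psmb5, unlike the other two.

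**Figure D1:**
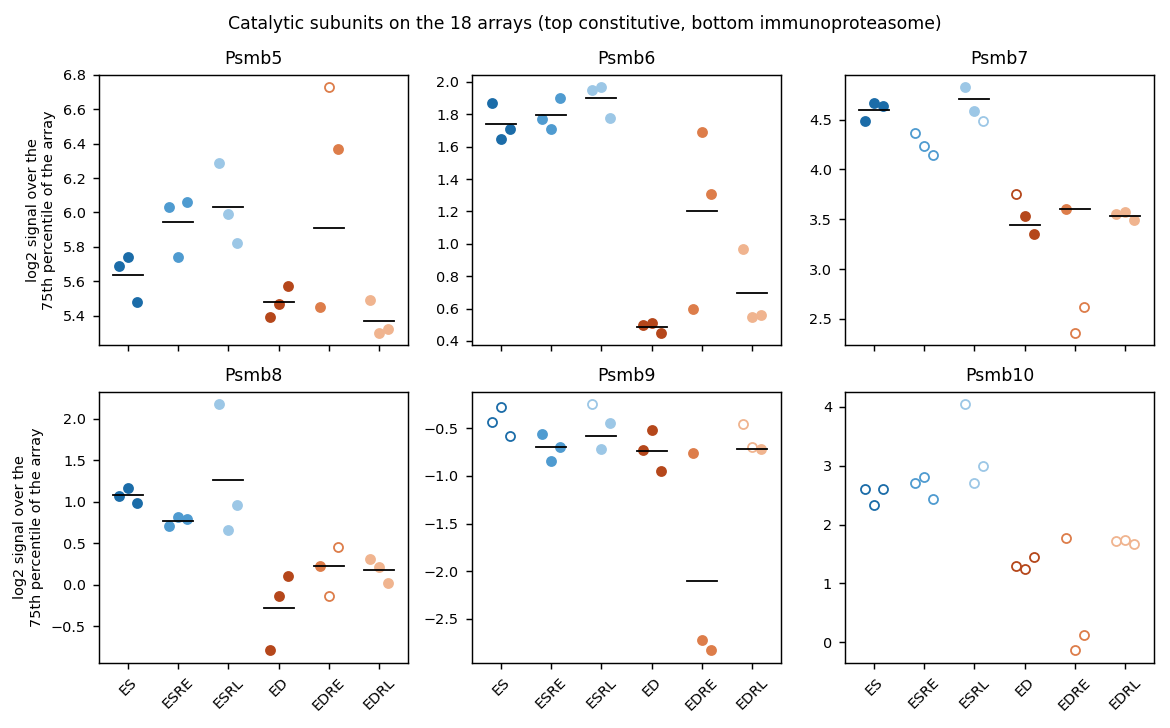
Level of each catalytic subunit gene (log2 signal over the 75th percentile of the array, vertical axis) on the 3 arrays of each of the 6 groups (horizontal axis). Filled points are spots the scanner software accepted, open points are spots it marked as outliers, and lines are the means of the filled points. Psmb6 sits at 1.65 to 1.87 in ES cells and at 0.45 to 0.51 in ED cells, and every Psmb10 spot is open.

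Psmd12, a lid subunit, had the largest fall of any subunit gene between ED and ES cells. Its levels were 4.51, 4.71 and 4.58 in ES samples and 3.36, 3.13 and 3.02 in ED samples, which do not overlap. The change was -1.43 ± 0.22 (limma adjusted p = 0.000253), a 2.69-fold lower signal, or 1.73-fold with arrays set to their median. Psmb6 and Psmd12 were the 2 subunit genes that fell in this comparison under each of percentile, median and quantile scaling, and both kept the call under all 21 alternatives tried, with changes between -1.35 and -0.62 for Psmb6 and between -1.52 and -0.79 for Psmd12. Psme4, which encodes a large monomeric activator that caps the core in the nucleus, had levels of 5.34, 5.26 and 5.46 in ES cells and 4.24, 4.35 and 4.51 in ED cells. Its fall of 0.99 ± 0.16 log2 units (adjusted p = 0.000173) was the change with the smallest p among the subunit genes, and with arrays set to their median it was 1.27-fold and did not pass (adjusted p = 0.116).

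The other rings and the regulatory particle changed in part. In the alpha ring, Psma1, Psma2 and Psma4 fell among 7 genes tested. Psma1, a dim feature, went from -2.04, -2.16 and -2.15 in ES samples to -3.32, -3.25 and -3.49 in ED samples, a change of -1.24 ± 0.30 (adjusted p = 0.00284) that did not pass with arrays set to their median or with scans as a block. Among the 4 beta subunit genes without catalysis, Psmb2 and Psmb3 fell, the latter from 5.69, 5.53 and 5.64 to 4.50, 4.64 and 4.98. Psmc4 and Psmc5 fell among the 6 ATPases, by 0.80 and 1.01 log2 units, while Psmc1, Psmc2 and Psmc6 had changes above 0 that did not pass the test.

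In the base, Psmd4, a receptor for ubiquitin chains, was the gene that fell among 3 tested, with levels of 5.34 and 4.87 in the ES samples kept and 4.18, 4.25 and 4.20 in ED samples, and with a change of -0.89 (adjusted p = 0.0137). This call was lost without ES sample 1 (-0.66), with arrays set to their median and with scans as a block. Psmd2, a scaffold of the base, gave -0.18 and -0.16 with its 2 probes and did not pass. In the lid, Psmd3, Psmd6 and Psmd12 fell among 8 tested. Psmd14, the lid enzyme that cuts ubiquitin off the substrate, had a change of -0.11 against the 1 ES sample kept, and Psmd11, a lid scaffold, one of 0.06; neither passed. None of the 3 base assembly chaperones tested (Psmd5, Psmd9 and Psmd10) passed, and Psme3, the nuclear activator, had a change of -0.86 that missed the threshold (adjusted p = 0.0509), with 2 ED samples against 1 ES sample kept. Of the 15 genes that fell, 12 kept a change below 0 with arrays set to their median.

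**Figure D2:**
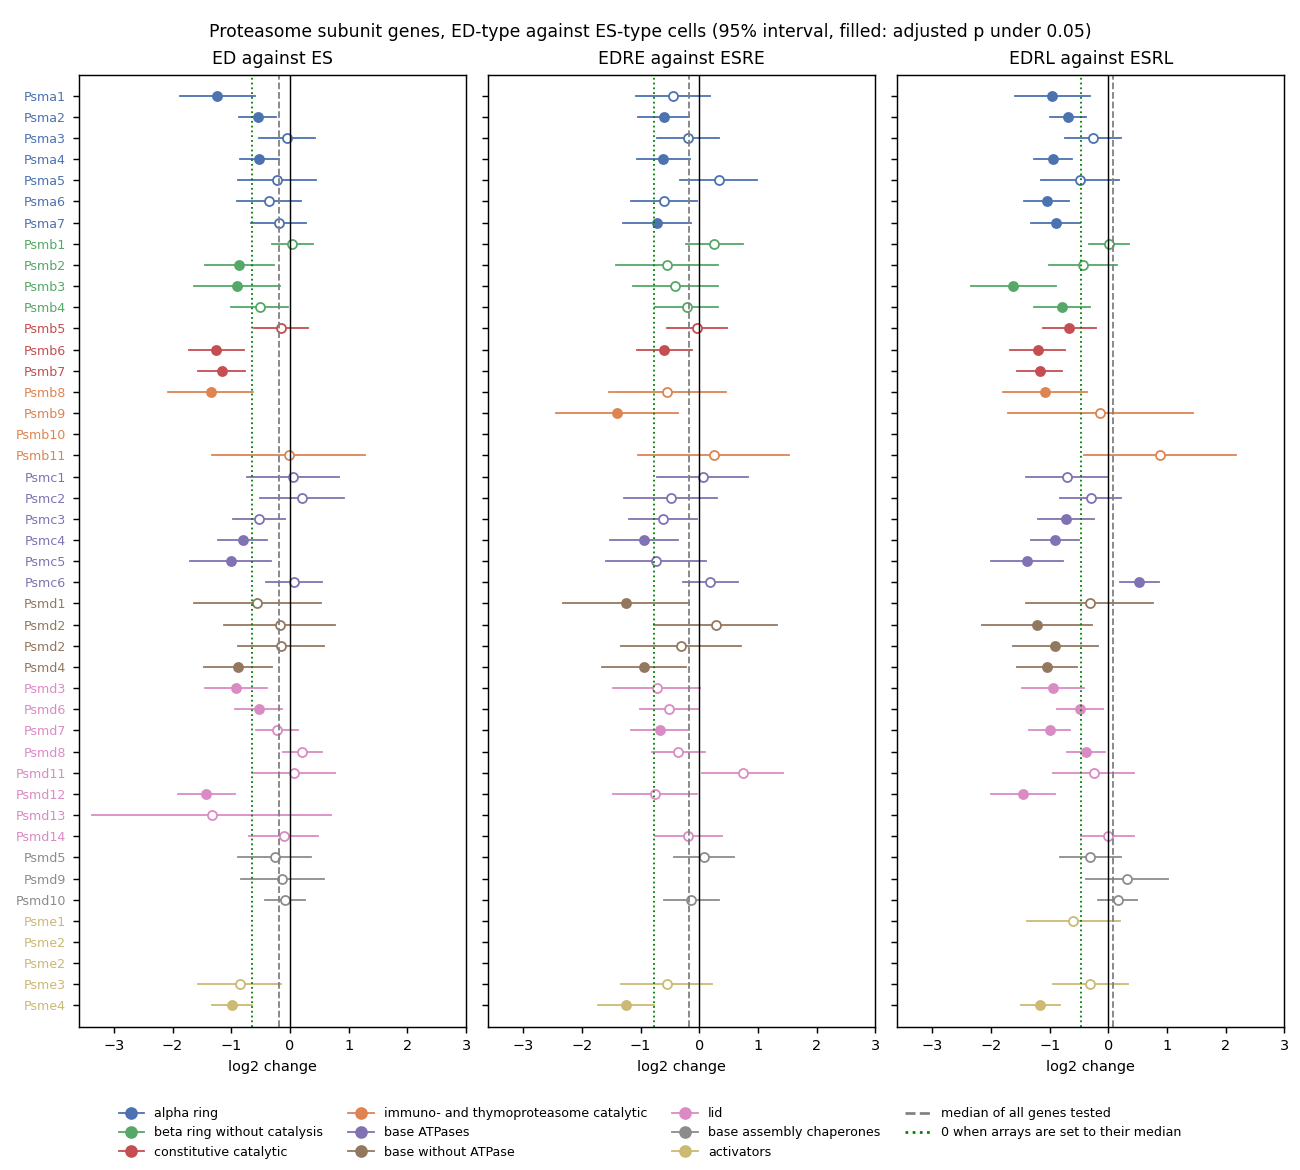
Log2 change (horizontal axis) of each subunit gene, by role (vertical axis), in ED against ES, EDRE against ESRE and EDRL against ESRL cells. Points carry 95% intervals and are filled where the adjusted p was under 0.05, the dashed grey line is the median of all features, and the dotted green line is where 0 lies when arrays are set to their median. Filled points lie below 0 in all 3 panels except Psmc6 in EDRL against ESRL cells, and 12 of the 15 filled points of the first panel lie left of the dotted line.

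The stretches upstream of 6 subunit genes are printed because they belong to the genes with the largest falls that have an entry (Psma1, Psmb6, Psmb8, Psmd12), the catalytic gene that did not pass in untreated cells (Psmb5), and the immunoproteasome gene Psmb9, which RefSeq places on chromosome 17 with Tap1 between it and Psmb8. They are from RefSeq, build GRCm38.p6, run 5′ to 3′ on the strand of the gene and end just before the start of transcription, with Psmb6 ending 33 bases earlier, where its gene record begins. Capitals mark matches to CCAAT (the box bound by NF-Y), TGACNNNGC (the core of the antioxidant response element, bound by Nfe2l1 with small Maf proteins), GAAANNGAA (an interferon response element) or TTCNNNGAA (a STAT site), each on either strand.
Psma1 (chr7:114276117-114276366, - strand): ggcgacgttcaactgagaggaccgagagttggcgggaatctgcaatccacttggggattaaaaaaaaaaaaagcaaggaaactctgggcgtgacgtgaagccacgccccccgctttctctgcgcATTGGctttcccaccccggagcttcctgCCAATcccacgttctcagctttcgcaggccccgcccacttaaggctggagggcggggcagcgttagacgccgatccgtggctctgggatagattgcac
Psmb5 (chr14:54617996-54618245, - strand): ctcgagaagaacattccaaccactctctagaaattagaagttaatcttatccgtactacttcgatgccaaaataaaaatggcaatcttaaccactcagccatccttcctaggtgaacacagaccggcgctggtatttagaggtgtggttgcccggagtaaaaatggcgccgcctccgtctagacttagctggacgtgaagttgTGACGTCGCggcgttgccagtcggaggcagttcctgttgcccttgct
Psmb6 (chr11:70525107-70525323, + strand): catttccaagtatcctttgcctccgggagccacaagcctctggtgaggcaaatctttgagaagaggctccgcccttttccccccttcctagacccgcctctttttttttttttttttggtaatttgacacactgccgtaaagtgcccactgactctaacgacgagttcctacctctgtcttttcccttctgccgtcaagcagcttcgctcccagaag
Psmb8 (chr17:34197945-34198194, + strand): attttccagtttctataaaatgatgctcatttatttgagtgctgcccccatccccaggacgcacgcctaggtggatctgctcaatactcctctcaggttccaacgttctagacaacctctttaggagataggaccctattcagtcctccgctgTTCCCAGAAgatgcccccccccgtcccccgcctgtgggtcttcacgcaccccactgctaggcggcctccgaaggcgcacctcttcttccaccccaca
Psmb9 (chr17:34187331-34187580, - strand): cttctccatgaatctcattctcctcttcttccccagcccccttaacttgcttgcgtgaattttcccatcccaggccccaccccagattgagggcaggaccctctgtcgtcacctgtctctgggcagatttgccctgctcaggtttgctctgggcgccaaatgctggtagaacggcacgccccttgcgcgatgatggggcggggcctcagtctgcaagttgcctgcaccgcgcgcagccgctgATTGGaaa
Psmd12 (chr11:107479278-107479527, + strand): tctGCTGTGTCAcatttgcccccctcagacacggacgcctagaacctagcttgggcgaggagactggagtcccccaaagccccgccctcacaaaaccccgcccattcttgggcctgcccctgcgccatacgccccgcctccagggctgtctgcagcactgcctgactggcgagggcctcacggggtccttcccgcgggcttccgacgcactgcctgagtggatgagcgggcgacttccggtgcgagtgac

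Psma1 held a CCAAT box on each strand, Psmb9 held 1, Psmb5 and Psmd12 each held a TGACNNNGC match, and Psmb8 held the palindromic STAT match. Psmb6 had a TGACNNNGC match in the last 9 bases before its start, within the stretch left out. The first 25 bases printed for Psmb9 lie also within Tap1, which runs the other way. Over the 36 of 42 subunit genes with an entry, 38.9% had a CCAAT match in the 250 bases before the start, beside 37.5% of all 27025 promoters. For TGACNNNGC the shares were 13.9% and 11.5%, for GAAANNGAA 8.33% and 8.18%, and for TTCNNNGAA 2.78% (Psmb8) and 8.13%. The shares of the first 3 motifs were thus near those of all promoters. A match describes letters and does not show a bound site.

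The same contrast was measured again, in other samples, 4 h after IR. Between EDRL and ESRL cells, 22 of 39 subunit genes tested fell (31.6% of 24050 features) and Psmc6 rose (30.8%). Of the 22 genes, 11 fell by over 1 log2 unit (24.8% of features). The subunit median was -0.69 beside 0.08 over all features, a gap of 0.53 to 0.81 log2 units over 17 settings that was not tested. The subunit median minus that of all features was -0.48 without ESRL sample 1 and -0.85 without ESRL sample 2. With arrays set to their median, all features moved up by 0.47, and 8 subunit genes fell while 3 rose, beside 22.8% and 44.8% of features. The 8 genes that fell under percentile, median and quantile scaling alike were Psma4, Psmb3, Psmb6, Psmb7, Psmc5, Psmd7, Psmd12 and Psme4. Among features well above background on all 18 arrays, 28.1% fell and 33.5% rose.

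Psmb6, Psmd12 and Psme4 fell again. Psmb6 levels were 1.95, 1.97 and 1.78 in ESRL samples and 0.97, 0.55 and 0.56 in EDRL samples, with a change of -1.21 ± 0.22 (adjusted p = 0.000205). Psmd12 had levels of 4.73 and 4.61 in the ESRL samples kept and of 3.23, 3.23 and 3.19 in EDRL samples, with a change of -1.45 ± 0.24 (adjusted p = 0.000359). Neither gene's groups overlapped. Psme4 went from 5.63, 5.82 and 5.42 to 4.59, 4.41 and 4.39, a change of -1.16 ± 0.16 (adjusted p = 2.9e-05). All 3 kept the call in this comparison under the 21 alternatives, as did the ATPase gene Psmc5.

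The largest fall of this contrast was that of Psmb3, a beta subunit without catalysis. Its levels were 6.56, 5.74 and 5.97 in ESRL samples and 4.55, 4.44 and 4.43 in EDRL samples, with a change of -1.62 ± 0.34 (adjusted p = 0.000783), a 3.07-fold lower signal, or 2.21-fold with arrays set to their median. ESRL sample 1, scanned alone, was the highest of its group for Psmb3, and without it the change of Psmb3 was -1.38. The Psmb3 call was lost with scans as a block (limma adjusted p = 0.0539) and kept under 20 of 21 alternatives. Psmc5 had levels of 4.68, 3.42 and 4.10 against 2.80, 2.66 and 2.57, a change of -1.39 ± 0.28 (adjusted p = 0.000981). Both Psmd2 probes fell here, by 1.22 and 0.91 log2 units, with ESRL sample 1 at 3.38 and 3.46 and the other ESRL samples between 1.80 and 2.25. Without ESRL sample 1 their changes were -0.78 and -0.40 and did not pass. All 3 constitutive catalytic genes passed, Psmb5 included, from 6.29, 5.99 and 5.82 to 5.49, 5.30 and 5.32 (change of -0.67, adjusted p = 0.0143). The Psmb5 call was lost without ESRL sample 1, with arrays set to their median and with scans as a block.

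By role, 5 of 7 alpha ring genes fell, 2 of 4 beta genes without catalysis, 3 of 6 ATPases, 2 of 3 base genes, 5 of 7 lid genes and 1 of 3 activators. Of all features, 31.6% fell in this comparison, and no role was tested against that share. None of the 3 base assembly chaperones passed. Psmc6 ran against the other ATPases, with levels of 3.19, 3.52 and 3.28 in ESRL samples and 3.90, 3.83 and 3.83 in EDRL samples. Its change was 0.53 ± 0.15 (adjusted p = 0.0106), and its change between ED and ES cells was 0.07 with only ES sample 3 kept.

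At 15 min after IR the contrast could be read less well, because of the marked spots of EDRE samples 2 and 3. Between EDRE and ESRE cells, 10 of 36 subunit genes tested fell (32.9% of 22268 features) and none rose (23.8%), with 3 genes falling by over 1 log2 unit (27.9%). With arrays set to their median, all features moved up by 0.77, and 9 subunit genes rose while none fell, beside 43.8% and 20.2% of features. Quantile normalization gave 10 that fell and 1 that rose, beside 28.9% and 32.2% of features. The subunit median was -0.53 beside -0.18 over all features, and the gap between them ran from -0.95 to 0.21 over 17 settings, above 0 with the methods' t-test (14 genes), and was 0.48 without EDRE sample 1. The genes called lower were Psma2, Psma4, Psma7, Psmb6, Psmb9, Psmc4, Psmd1, Psmd4, Psmd7 and Psme4. Psme4 had levels of 5.90, 5.61 and 5.97 in ESRE samples and 4.59 in the EDRE sample kept, a change of -1.24 (adjusted p = 0.000318), and with marked spots kept the EDRE samples were at 4.59, 4.81 and 4.47, all below the ESRE samples. With 1 EDRE sample each, Psmd4 had a change of -0.94 (adjusted p = 0.0286) and Psma7 one of -0.72 (adjusted p = 0.0355), of which 12 and 10 of 20 alternatives kept the call. With marked spots kept, Psma7 was at 4.19, 4.72 and 4.60 in EDRE samples against 5.02, 4.76 and 4.94 in ESRE samples, a change of -0.40 that did not pass. Psmb6 was at 0.60 in EDRE sample 1 but at 1.69 and 1.31 in samples 2 and 3, against 1.77, 1.71 and 1.90 in ESRE samples, and its change of -0.59 (adjusted p = 0.0295) was 0.11 with arrays set to their median. The fall of Psmd1, a scaffold of the base, rested on EDRE sample 2, where the level was 3.15 against 5.49 in sample 1, and was -0.08 without it. Among features well above background on all 18 arrays, 21.1% fell and 33.9% rose.

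Across the 3 cell type comparisons, which share no array, 35 subunit genes were tested in all. Psma2, Psma4, Psmb6, Psmc4, Psmd4 and Psme4 were called lower in each of them, but for all of these except Psmb6 the 15 min call set 1 EDRE sample against 3 ESRE samples, and none of the 6 calls at 15 min held with arrays set to their median. With marked spots kept, Psma2 was at 5.36, 6.12 and 6.14 in EDRE samples and at 6.07, 5.75 and 6.07 in ESRE samples, which overlap. Of the 15 genes that fell between ED and ES cells and the 22 that fell between EDRL and ESRL cells, 14 were in both lists. The changes were below 0 in all 3 for 24 genes, and 17 of the 42 genes were called lower in none, among them Psmb10 and Psme2, which could not be tested with marked spots left out, and Psme1, which was tested in 1 comparison. Over the 37 genes tested in both, the ED against ES and EDRL against ESRL changes had a Pearson correlation of 0.679 and a Spearman correlation of 0.756, given as a description across genes that lie on the same arrays, and 30 had the same sign. Both axes contain the difference in scaling between ED-type and ES-type arrays. Of all features, 31.9%, 32.9% and 31.6% fell in these comparisons without IR, at 15 min and at 4 h. Calls and signs shared between comparisons were not counted over all features, so the shared counts of subunit genes have no background beside them.

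**Figure D3:**
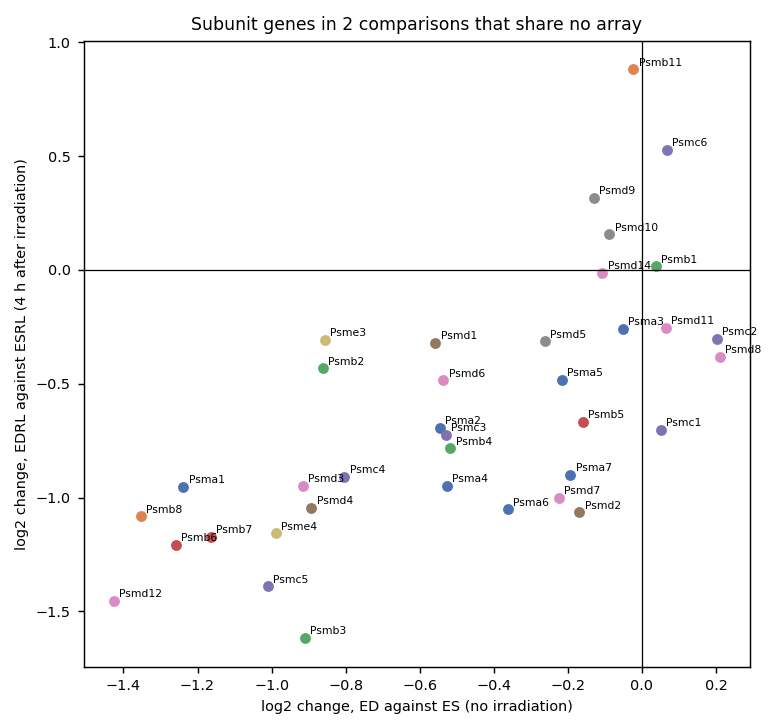
Log2 change of each subunit gene between ED and ES cells (horizontal axis) and between EDRL and ESRL cells (vertical axis), coloured by role. Most genes lie below 0 on both axes, with Psmd12 at -1.43 and -1.45, and Psmc6 and Psmb11 lie above 0 on the vertical axis.

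Since ES samples were read in their own scan, the contrast was also read within a scan that held both cell types, ED samples 1 to 3 and ESRE sample 3. Of 33 subunit genes with a level there, 29 were lower in the ED samples, with a median of -0.58 beside -0.03 over all features. These values set 3 arrays against 1 and come with no test, and ESRE sample 3 had received IR. Scans were also fitted as a random block over all arrays, where arrays of a scan had a correlation of 0.640. Between ED and ES cells, 4 of 38 subunit genes then fell (Psmb6, Psmb7, Psmd12 and Psme4) and none rose, beside 18.1% and 11.3% of all features. Between EDRL and ESRL cells, 13 of 39 fell and none rose, beside 22.7% and 22.1% of all features.

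**Figure D4:**
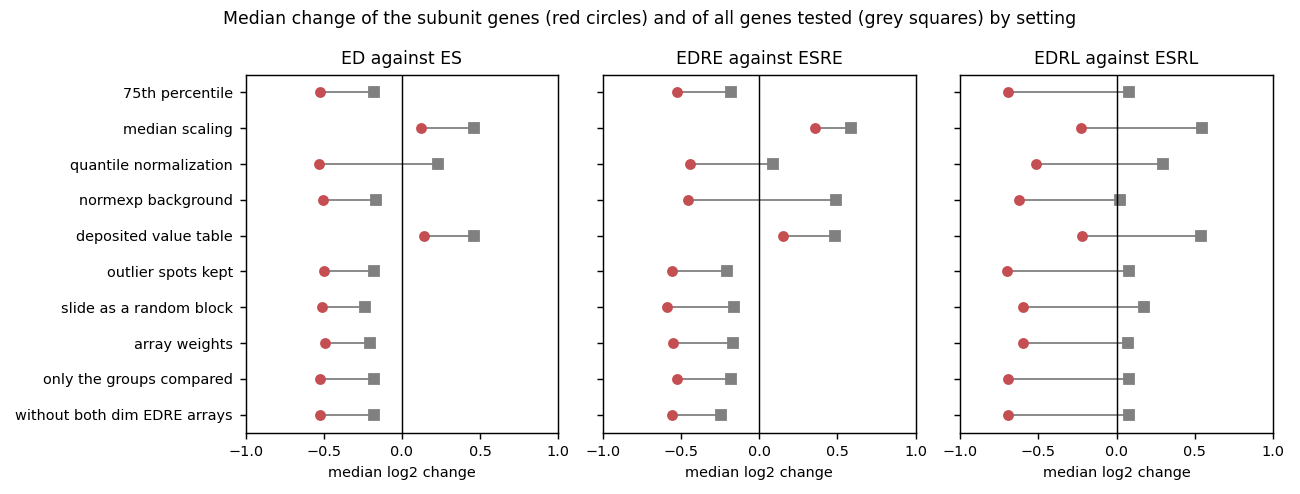
Median log2 change (horizontal axis) of the subunit genes (red circles) and of all features tested (grey squares) under each setting (vertical axis), in the 3 cell type comparisons. The red circle lies left of the grey square in every row drawn (the methods' t-test, which is not drawn, put it right of the square in EDRE against ESRE cells, at -0.12 beside -0.32), and both move right with median scaling and with the deposited value table, where the subunit median is 0.12 and 0.14 in ED against ES cells.

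Among the immunoproteasome genes, Psmb8 fell in untreated ED cells and Psmb9 did not pass. Psmb8, which replaces Psmb5, had levels of 1.07, 1.17 and 0.99 in ES samples and -0.79, -0.14 and 0.11 in ED samples, with no overlap. It fell by 1.35 ± 0.33 log2 units (adjusted p = 0.00384), a change that was -0.71 and did not pass with arrays set to their median (adjusted p = 0.146), and by 1.08 between EDRL and ESRL cells (adjusted p = 0.0119), where ESRL sample 1 was at 2.17 and the other ESRL samples at 0.66 and 0.96. Without that sample, the latter change was -0.63, and it did not pass with arrays set to their median or with scans as a block. Psmb9, which replaces Psmb6, was marked as an outlier on all ES arrays. With marked spots kept its levels were -0.43, -0.28 and -0.58 in ES samples and -0.73, -0.52 and -0.95 in ED samples, a change of -0.30 (adjusted p = 0.574). Psmb9 fell between EDRE and ESRE cells (change of -1.40, adjusted p = 0.0268), where EDRE samples 2 and 3 were at -2.72 and -2.83 and sample 1 was at -0.76.

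Psmb10, which replaces Psmb7, was marked on all 18 arrays and has values only with marked spots kept. These were 2.61, 2.33 and 2.60 in ES samples and 1.30, 1.24 and 1.45 in ED samples, a change of -1.18 (adjusted p = 0.0231), and -1.54 between EDRL and ESRL cells (adjusted p = 0.00388). Psmb11, the catalytic subunit of the thymus, was dim on every array, with levels from -8.13 to -3.45.

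Taking the immunoproteasome gene minus its constitutive partner within an array removes the scaling, since it acts on both. Only the change of this difference between groups is read, as levels of different probes cannot be compared. Psmb8 minus Psmb5 was -4.63, -4.56 and -4.48 in ES samples and -6.19, -5.61 and -5.46 in ED samples, a change of -1.19 with no overlap. The exact two-sided permutation test gave p = 0.1, the smallest that 3 against 3 samples allow. Between EDRL and ESRL cells the change was -0.416 (exact p = 0.4), with overlap. Over 7 differentiated and 9 ES-type arrays it was -0.60 (exact permutation p = 0.00918, 0.0459 after Benjamini-Hochberg adjustment over 5 tests), and leaving out 1 sample gave -0.66 to -0.47. This test treats arrays of all times and scans as exchangeable, although arrays of a scan correlated and the change was -1.19, -0.0406 and -0.416 without IR, at 15 min and at 4 h, so its p is not independent of that structure.

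Psmb9 minus Psmb6 had changes of the other sign in these contrasts. With marked spots kept, its change was 0.955 between ED and ES cells and 1.05 between EDRL and ESRL cells, without overlap in either (exact p = 0.1 each), and its change was -0.809 between EDRE and ESRE cells (exact p = 0.4). Over 9 arrays of each cell type its change was 0.40, with overlap (exact permutation p = 0.39), and with marked spots left out it was 0.358 (exact permutation p = 0.597). Psmb10 minus Psmb7 had a change of -0.412 over 9 arrays of each cell type, with exact permutation p = 0.0318, which did not pass after adjustment over 12 tests (0.191).

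Psme1 and Psme2, whose products form the interferon-inducible activator, were marked on most arrays. With marked spots kept, Psme1 levels were 3.69, 3.59 and 3.46 in ES samples and 2.79, 3.05 and 2.90 in ED samples, a change of -0.66 (adjusted p = 0.271). The 2 Psme2 probes gave -0.09 and 0.11. Psme2 has a close copy, Psme2b, and the probes may read both.

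Genes for antigen presentation rose where Psmb8 fell. Of 6 listed and tested between ED and ES cells, 4 rose and none fell, namely Tap1 (0.62) and Tap2 (1.29), the peptide transporter genes that lie beside Psmb9 and Psmb8 on chromosome 17, Erap1 (2.0), which trims peptides, and B2m, the light chain of class I molecules (3.35 and 3.38 with its 2 probes). The same 4 rose between EDRL and ESRL cells, and in both comparisons also with arrays set to their median. Interferon response genes rose with them, 5 of 7 tested, with a summed level of 4.21 to 4.62 in ES samples and 8.13 to 8.53 in ED samples, while Irf1 fell, a call that was lost with arrays set to their median. Blood and immune marker genes moved with Psmb8. Their summed level was 13.0 to 14.4 in ES samples and 0.392 to 0.474 in ED samples, and 5 of 6 tested fell. Cd52 and Laptm5 were not well above background in ED cells, and Ptprc was not in either ES or ED cells. With arrays set to their median, Fcer1g (-0.53) and Spi1 (0.07) did not pass. The part of these genes in the Psmb8 result was not tested. Beside these counts, 31.9% of all features fell and 19.6% rose between ED and ES cells.

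Few subunit genes passed the test after IR. At 15 min after 10 Gy, none of 36 tested rose or fell in ES cells, where 0.419% of 25507 features rose and 0.220% fell. At an unadjusted p under 0.05, 6 were higher and none lower by limma, beside 1097 and 1412 of all features, and 28 of 36 changes were above 0, beside 10712 of 25507. The subunit median was 0.10 beside -0.08 over all features, and -0.09 beside -0.03 with quantile normalization. The methods' t-test gave 11 higher and 1 lower unadjusted, beside 2774 and 3260 of 24388 features, and 1 higher after adjustment, beside 1.62% of features. The changes ran from -0.37 to 0.72. Psma7, an alpha ring gene, had levels of 4.30 and 4.37 in the ES samples kept and of 5.02, 4.76 and 4.94 in ESRE samples, and did not pass.

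At 4 h after IR, Psmd8, a lid subunit, rose in ES cells and none of 37 genes tested fell (1.79% of 25599 features rose and 7.77% fell). Psmd8 levels were 2.25, 2.09 and 2.10 in ES samples and 2.85, 2.50 and 2.78 in ESRL samples, without overlap. The change was 0.56 ± 0.15 (adjusted p = 0.0372), and the call was lost when any of ES samples 1, 2 and 3 or ESRL samples 1 and 3 was left out, with changes from 0.49 to 0.67. At an unadjusted p under 0.05, 5 genes were higher and 1 lower by limma (1554 and 5233 of all features). The methods' t-test gave the same counts (6.83% and 12.4% of features), and no gene passed it after adjustment. ES arrays shared no scan with ESRE or ESRL arrays, nor ED arrays with EDRE or EDRL arrays, so the change after IR and the scan cannot be told apart in either cell type. Likewise the groups of each cell type comparison (ED and ES, EDRE and ESRE, EDRL and ESRL) shared no scan. Within the scan that held ESRE samples 1 and 2 and ESRL samples 2 and 3, the median change from 15 min to 4 h was -0.11 over 37 subunit genes and -0.08 over all features.

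In ED cells, none of 39 genes rose or fell after 15 min, where 4.00% of 22404 features rose and 3.92% fell. At an unadjusted p under 0.05, 8 were higher and 1 lower by limma, beside 3147 and 2912 of all features, and none by the methods' t-test, which could be run on 17 genes. The closest to the threshold were Psmb6, with 0.50, 0.51 and 0.45 in ED samples and 0.60, 1.69 and 1.31 in EDRE samples (change of 0.71, adjusted p = 0.0568), and Psma1 (change of 0.98, adjusted p = 0.0574). In both genes the high EDRE values were those of samples 2 and 3. After 4 h none of 40 genes rose or fell in ED cells (1.75% of 23209 features rose and 0.702% fell). At an unadjusted p under 0.05, none was higher and 1 lower by limma, beside 1528 and 1808 of all features. The methods' t-test, run on 37 genes, gave 2 lower after adjustment and 4 before, beside 8.34% and 22.6% of all features. Changes ran from -0.66 to 0.62, and within the scan that held EDRL samples 1 to 3 and EDRE sample 1 the median was -0.07.

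**Figure D5:**
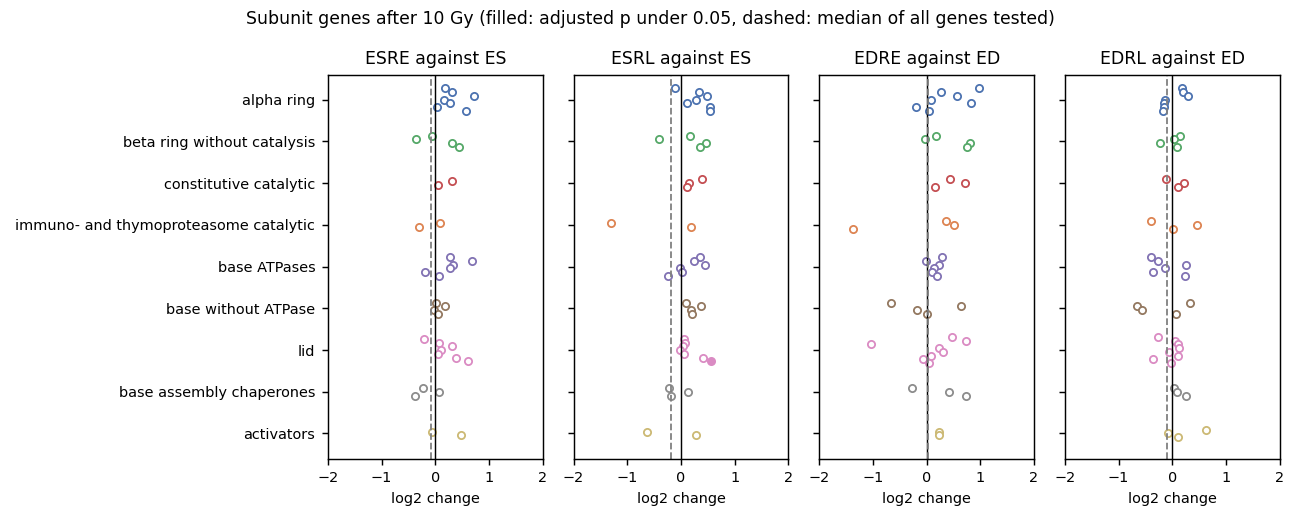
Log2 change after 10 Gy (horizontal axis) of the subunit genes by role (vertical axis), 15 min and 4 h after IR in ES cells (ESRE and ESRL against ES) and in ED cells (EDRE and EDRL against ED). The filled point, Psmd8 at 0.56 in ESRL against ES cells, is the gene that passed, and the dashed line is the median of all features tested.

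Whether the response to IR differed between the cell types was tested as the change in ES cells minus the change in ED cells. None of 36 subunit genes passed for 15 min (2.12% of 25773 features did) and none of 37 for 4 h (1.21% of 26015). At an unadjusted p under 0.05, 2 genes had a difference below 0 for 15 min, beside 3365 of all features, and 4 had one above 0 for 4 h, beside 1398. The smallest adjusted p was 0.224 for 15 min and 0.145 for 4 h.

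Genes that serve the proteasome without being taken by the symbol rule were mixed. Of 11 other proteasome genes tested between ED and ES cells, 3 fell and 2 rose, beside 31.9% and 19.6% of all features, so both counts were near the background. Psmg1, a chaperone of core assembly, fell by 2.07 ± 0.33 log2 units (adjusted p = 8.59e-05) and by 2.99 ± 0.33 between EDRL and ESRL cells (adjusted p = 1.54e-06), and fell with arrays set to their median as well (-1.43 and -2.52). Adrm1, a ubiquitin receptor, and Usp14, a deubiquitinase that binds the base, fell by 0.78 and, with 2 probes, by 0.79 and 0.72, calls that were lost with arrays set to their median. Ecpas, an adaptor of the proteasome, and Sem1, a small lid subunit named outside the Psm scheme, rose by 1.50 and 0.63. Pomp, which matures the core, had a change of -0.18 in untreated cells and fell by 1.15 between EDRL and ESRL cells.

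Of 7 genes for the transcription of proteasome genes, Nfyb, an NF-Y subunit, fell by 1.82 ± 0.29 (adjusted p = 7.98e-05) and Ddi2, the protease that activates Nfe2l1, by 1.57 ± 0.22 (adjusted p = 0.00104), while Zfand5, a protein that activates the proteasome and was listed with them, rose by 0.73. Nfe2l1 itself had changes of 0.31 and 0.47 that did not pass. Nfyb and Ddi2 fell, and Zfand5 rose, between EDRL and ESRL cells too, and all of these calls held with arrays set to their median. Of 14 genes for ubiquitin, its activation and its shuttles, 2 fell (Ubqln4 by 0.89 and, with 1 of its 2 probes, Ubqln1 by 0.47) and Rad23b rose by 0.77, and neither fall held with arrays set to their median. Beside these counts, 31.9% of all features fell and 19.6% rose between ED and ES cells.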

How the data were processed

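RNA of the 18 samples was hybridised to 1-colour Agilent arrays. Per the file headers, the deposited intensities are scanner signals from which Agilent Feature Extraction subtracted background and spatial trends, not normalized between arrays. The submitters' processing notes name version 9.1. The deposited table of log2 values equals, within 0.0001 on 95% of probes, the log2 signal minus nearly the array's median, with column medians of 0.57 to 0.72, and served as an alternative. Its scale, centring and direction are thereby known.

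Of 39448 spots per array, 1417 control and 200 negative control spots were left out, as were spots marked as outliers. The 37246 probes kept were set to log2 minus the array's 75th percentile, and 22216 were named through RefSeq accessions. A feature was tested where all 3 arrays of at least 1 compared group were well above background. limma 3.58.1 (R 4.3.3) was fitted over all 6 groups, with Benjamini-Hochberg adjustment per comparison, after a check on simulated data. Catalytic pairs were compared by exact two-sided permutation tests. The number of arrays limits the precision.

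The subunit genes and all gene lists were chosen with earlier results of these data known. Named with values were the catalytic, immunoproteasome, activator, ubiquitin receptor and deubiquitinase subunits, Psma7, Psmb11 and Psmd11, and per comparison the 4 largest rises and falls among genes called. Genes named beyond this were chosen after their values were seen. Alternatives were other scalings, normexp (offset 50, on the median signal, as the mean signal is not among the columns), spot and probe filters, scan and replicate blocks, array weights, the methods' t-test (Student's, equal variances) and each array left out. Of these, keeping marked spots while leaving out both dim EDRE arrays was chosen after seeing the data.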

Additional observations from a re-analysis of the deposited data

How the results depend on the processing

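Counts are of subunit genes, and ranges on leaving out 1 array cover arrays of the compared groups. For ED against ES (15 lower, none higher), median scaling gave 2 lower and 5 higher, the deposited values 2 and 3, scans as a random block 4 lower, array weights 23 lower, a size over 1 log2 unit 6 lower, and leaving out 1 array 11 to 14 lower. Since all groups share the estimate of spread, leaving out arrays of other groups also moved this count, to 20 lower without EDRE sample 1 or 2 or both dim EDRE arrays, and to 23 lower without both and with kept spots. For EDRL against ESRL (22 lower, 1 higher), median scaling gave 8 lower and 3 higher, the deposited values 7 and 3, quantile normalization and array weights 2 higher each, the scan block 13 lower and 0 higher, a size over 1 log2 unit 11 and 0, normexp and kept outlier spots 0 higher, and leaving out 1 array 18 to 22 lower and 1 to 2 higher, and 24 lower without EDRE sample 1 or both dim EDRE arrays. For EDRE against ESRE (10 lower, none higher), median scaling gave 0 lower and 9 higher, the deposited values 3 and 8, normexp 2 higher, kept outlier spots 18 lower and 2 higher (17 lower without both dim EDRE arrays), quantile normalization and no filter 1 higher each, the scan block 4 lower, only the compared groups 1 lower, array weights 2 lower, a size over 1 log2 unit 3 lower, the methods' t-test 0 lower with or without adjustment, and leaving out 1 array 2 to 11 lower and 0 to 3 higher. Without EDRE sample 1 there were 2 lower and 3 higher, without ESRE sample 1 or 3 there were 2 and 3 lower, without ESRL sample 1 there were 13 lower and 1 higher, and without both dim EDRE arrays 14 lower. The causes were not tested.

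For ESRE against ES, where no gene passed, the fit to the compared groups gave 2 higher, array weights 6, and the methods' t-test 11 higher and 1 lower unadjusted and 1 higher adjusted, and leaving out both dim EDRE arrays 2 higher. For ESRL against ES (1 higher), median scaling and the deposited table gave 2, array weights 7 higher and 1 lower, kept spots without both dim EDRE arrays 3 higher, the unadjusted t-test 5 and 1, and the other settings that moved it (quantile, normexp, kept spots, no filter, scan block, replicate block, compared groups, adjusted t-test, size over 1 log2 unit) gave 0. Leaving out 1 array gave 0 to 2 higher and 0 to 1 lower. For EDRE against ED, where no gene passed, median scaling gave 6 higher, quantile normalization 1, normexp 4, kept spots 6 higher and 3 lower, the filter on every array 1, array weights 12 higher and 1 lower, the deposited values 9 higher, and leaving out 1 array 0 to 10 higher and 0 to 3 lower, the extremes without EDRE sample 1. For EDRL against ED, array weights gave 1 higher and 2 lower, the compared groups 3 lower, and the t-test 2 lower adjusted and 4 unadjusted. The differences between cell types had 2 genes (15 min) and 7 genes (4 h) with array weights and, for 15 min, 0 to 6 when 1 array was left out, 6 without EDRE sample 1.

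Reversed signs in genes called before or after the change of setting occurred for EDRE against ESRE in Psma7 (0.18 with median scaling, 0.31 in the deposited table), Psmb5 (0.72 and 0.94), Psmb6 (0.11 and 0.12), Psmd4 (0.09, deposited table) and Psmd14 (0.71, median scaling), and for EDRE against ED in Psmd14 (-1.68, kept spots). Genes called under neither setting changed sign too, as Psmb5 between ED and ES cells, with -0.24 to 0.48 over the alternatives. The Psmb8 minus Psmb5 change between EDRE and ESRE cells was 0.08 without ESRE sample 2, with a range of -0.12 to 0.08 on leaving out 1 array. Of the values of single genes under an alternative, 2560 kept the call or stayed uncalled with either sign, 129 lost the call, 58 gained it and 9 reversed.

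With the replicate number as a block, 14 genes were lower in ED against ES, 9 in EDRE against ESRE, and 19 lower and 1 higher in EDRL against ESRL, and Psmd8 was no longer called in ESRL against ES. Under this block, no other call count moved by over 1.5 times. Arrays of the same number did not deviate together (correlations of -0.371 to 0.303, with 0 to 4 of 6 arrays closest to their own number), so the numbers do not pair the samples.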
